A study of Homo sapiens with 24 samples.

Results

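The low dose of the ethanol extract of Schisandrae Fructus (EESF, 12.4 µg/mL) was compared with its vehicle (vehicle B, 0.1% DMSO) in SW1783 cells, an established human astrocytoma line, after 24 h of treatment. The members were the 3 libraries labelled as the low dose of EESF in batch B and the 3 labelled as the vehicle of the same batch, which makes 6 of the 24 libraries of the series. The series holds 8 groups of 3 libraries. Batch A has a vehicle and 3 doses of the hot water extract (WESF) at 20, 100 and 500 µg/mL, and batch B has a vehicle and 3 doses of EESF at 12.4, 62 and 310 µg/mL. The study asked how the transcriptomes under the 2 extracts differ. Here the question was which genes changed at the lowest dose of EESF and whether they carried on at 62 and 310 µg/mL.

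Schisandrae Fructus is the dried fruit of Schisandra chinensis, and ethanol draws out more of its lipophilic compounds, lignans among them, than hot water does. In cultured cells, the immediate early genes are transcription factors and regulators whose mRNAs are short-lived and are induced within minutes through growth factor and stress kinase signalling. EGR1, KLF6, MYC and the JUN and FOS genes belong to them, while IκBα (encoded by NFKBIA), tristetraprolin (ZFP36) and SOCS1 are negative regulators that damp cytokine signalling.

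Poly(A) RNA was sequenced as 100-base read pairs, and the deposited values are expected counts per gene. Total expected counts were 20245423, 20465712 and 18727797 in the vehicle B libraries and 25234360, 26068434 and 20713014 in the low-dose libraries, so the treated libraries were the deeper ones. Levels below are CPM, the counts of a gene relative to the library size after TMM scaling. Nothing in the labels says that replicate libraries came from separate cultures, so the p-values measure only the spread between these libraries, which may be technical. In bulk RNA, fewer cells of a type and less RNA per cell cannot be told apart.

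The labelled cell type was checked against its markers in vehicle B, in TPM, which divide counts by summed exon length and scale them to the same total in each library. The astrocyte genes GFAP, AQP4 and ALDH1L1 were near 0 (0.0099, 0.00883 and 0.00769) and FABP7 was at 0 in all 3 libraries, while SLC1A3, a glutamate transporter of astrocytes, had 4.63, and SLC1A2 and S100B had 0.0317 and 0.123. Of the glioma-associated genes VIM, CD44 and SOX9 had 2940, 897 and 67.8, but NES had 3.75 and SOX2 0.042. The mesenchymal genes COL1A1, COL1A2 and THY1 had 1310, 513 and 231. The other mesenchymal markers FAP, PDGFRB, LUM, COL3A1 and DCN had 32.9, 32.6, 23, 15.4 and 2.29. EPCAM and CDH1 of the epithelial markers and CD3E and AIF1 of the immune markers were at or near 0, but the keratin genes KRT18 and KRT8 had 117 and 7.13, CSF1R 2.14, PTPRC 1.97 and CD14 0.56. Of the neuron markers TUBB3 had 43.6, SYT1 8.83, SNAP25 4.39, MAP2 1.82 and RBFOX3 0.0423. Of the endothelial markers KDR had 16.4, while PECAM1 (0.404), CLDN5 (0.0632), VWF (0.0265) and CDH5 (0.0185) were low, and of the oligodendrocyte markers MBP had 1.09 and the others at most 0.17. Of 8 mesenchymal markers, COL1A2 alone passed the test at the low dose (−0.12 on the log2 scale), and none of the 5 astrocyte and glioma markers tested did, with 2 at an unadjusted p under 0.05 (edgeR) and 0 by DESeq2. Over all genes tested 6.24% fell and 3.11% rose, and once a trend on exon length and GC content had been removed COL1A2 did not pass (adjusted p = 0.544), while SOX9 fell (−0.20, adjusted p = 0.0414) and SNAP25 rose (0.25, adjusted p = 0.0398).

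EGR1, a zinc finger transcription factor of the immediate early response, fell most clearly, in all 3 low-dose libraries. KLF6, a zinc finger factor of the Krüppel-like family, fell with it, whereas NFKBIA rose. The 250 bases before the transcription start of these 3 genes are shown because EGR1 and KLF6 had the smallest adjusted p-values of the dose and because EGR1 and NFKBIA are standard examples of control through serum response factor and NF-κB. Sequences are from RefSeq on GRCh38.p14 (EGR1 chr5:138465229-138465478, plus strand, KLF6 chr10:3785210-3785459, minus strand, NFKBIA chr14:35404750-35404999, minus strand), each written 5′ to 3′ along the gene. Positions count from the RefSeq start, which for KLF6 lies inside the gene as GENCODE bounds it, so that its window overlaps the GENCODE gene. Capitals mark 2 CArG boxes in EGR1, a CACGTG in KLF6 and a κB site in NFKBIA.
EGR1: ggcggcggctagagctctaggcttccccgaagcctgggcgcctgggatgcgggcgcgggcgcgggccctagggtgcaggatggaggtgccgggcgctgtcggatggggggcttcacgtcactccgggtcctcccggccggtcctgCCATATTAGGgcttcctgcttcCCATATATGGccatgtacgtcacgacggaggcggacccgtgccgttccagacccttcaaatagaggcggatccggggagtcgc
KLF6: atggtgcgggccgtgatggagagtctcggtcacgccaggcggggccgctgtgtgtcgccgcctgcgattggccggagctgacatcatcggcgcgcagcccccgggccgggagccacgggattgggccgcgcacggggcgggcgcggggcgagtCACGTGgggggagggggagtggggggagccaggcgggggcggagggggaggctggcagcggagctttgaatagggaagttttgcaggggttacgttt
NFKBIA: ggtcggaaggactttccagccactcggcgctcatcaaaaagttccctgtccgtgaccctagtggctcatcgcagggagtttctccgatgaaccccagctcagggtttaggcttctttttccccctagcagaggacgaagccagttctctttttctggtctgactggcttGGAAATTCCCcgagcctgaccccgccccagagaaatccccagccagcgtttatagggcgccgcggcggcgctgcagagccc

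Both strands were searched for 4 motifs, namely the CArG box (the core of the serum response element), the κB site, the cAMP response element TGACGTCA and the E-box CACGTG, and none of the matches in these windows overlapped. EGR1 held 2 CArG boxes, which begin 105 and 83 bases before the start, against 1.16% of 35116 RefSeq windows of this length with at least 1. NFKBIA held a κB site that begins 81 bases before its start (9.96% of windows had at least 1). KLF6 held neither, and had a CACGTG (6.34% of windows) beginning 97 bases before its start. Of 41 genes looked up, 27 had a window. Among them ACTC1 was the other with a CArG box, the κB site was also found in ACTC1, SOCS1 and ZBED6, CACGTG in ZBED6, and TGACGTCA (1.65% of windows) in none. A match is a string of letters and says nothing about binding in these cells.

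Of 12892 protein-coding genes tested with edgeR's quasi-likelihood test, 35 were DEGs at the low dose (0.271%), defined by a change of over 1.5-fold (0.585 in log2) at an adjusted p below 0.05. Of these, 20 were higher and 15 lower than in vehicle B, and in each of the 35 the 3 low-dose libraries did not overlap the 3 vehicle libraries. Non-overlap was found in 31.1% of all genes tested, and the same contrast chose the 35. With no threshold on the fold, 1206 genes (9.35%) passed, 401 up and 805 down, with a median size of 0.245 in log2 for those that rose and 0.238 for those that fell. LIME1 (0.57) and MAMDC4 (0.58) were just under the fold threshold, and PRR7 (0.61) and KLF6 (−0.62) just past it. DESeq2 called 8 DEGs, all among the 35. It gave no adjusted p to the other 27, which averaged under 100 normalized counts. The counts rested on single libraries. Without vehicle B replicate 2 there were 11 DEGs and 213 genes past the adjusted p, and without replicate 1 there were 91 and 2679. Without low-dose replicates 1, 2 and 3 the DEGs were 19, 19 and 16, and the genes past the adjusted p 311, 269 and 351, and without vehicle B replicate 3 they were 32 and 514.

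**Figure D1:**
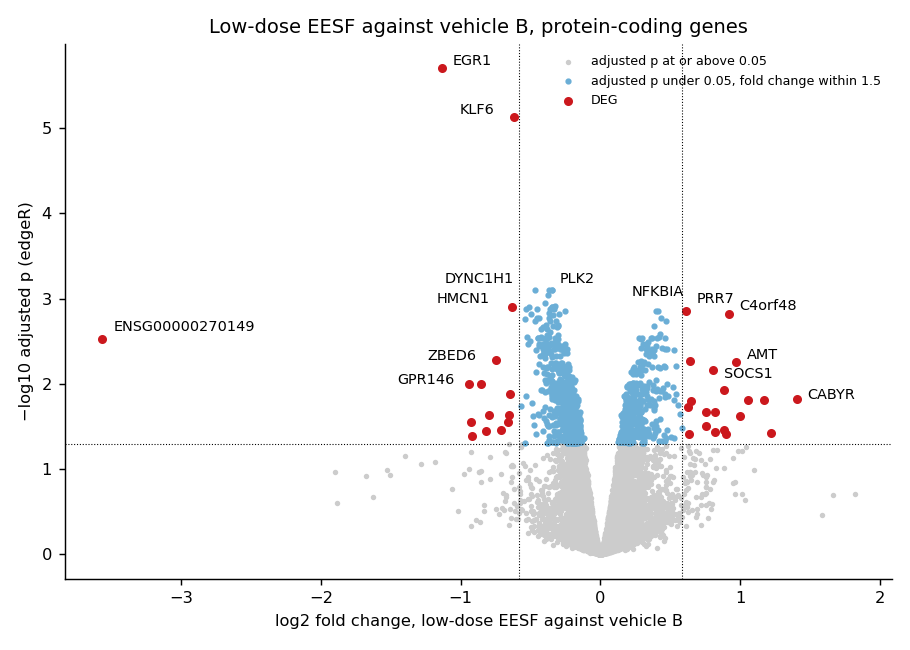
Log2 fold change of the low dose of EESF against vehicle B (x axis) and −log10 of edgeR's adjusted p (y axis) for 12892 protein-coding genes, 3 libraries per group. Red points are the 35 DEGs, blue points the other genes past the adjusted p, and dotted lines the thresholds. EGR1 (−1.13) and KLF6 (−0.62) stand above the rest.

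EGR1 (GRCh38 chr5:138465479-138469303, plus strand) had 148, 174 and 177 CPM in the vehicle libraries and 81.2, 70.6 and 76.4 CPM at the low dose. The groups were far apart, and the fall was −1.13 on the log2 scale (SE 0.070, edgeR adjusted p = 1.99e-06). KLF6 (chr10:3775996-3785281, minus strand) had 124, 120 and 119 CPM in the vehicle and 82.0, 76.5 and 78.1 CPM at the low dose. The libraries of either group lay close together and the groups far apart, and the fall was −0.62 (SE 0.044, adjusted p = 7.49e-06). Both were DEGs in each of the 15 alternative settings tried. Among other members of the family, MYC, the growth-related transcription factor, had 63.7, 66.3 and 64.6 CPM in the vehicle and 52.3, 49.9 and 49.8 CPM at the low dose. It fell by 0.36 on the log2 scale (SE 0.046, adjusted p = 0.00131), with no overlap. EGR3, a relative of EGR1 at a lower level, had 10.4, 12.1 and 13.5 CPM in the vehicle and 8.57, 8.77 and 9.91 CPM at the low dose, a fall of 0.41 (SE 0.10, adjusted p = 0.0254).

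Of 28 immediate early genes tested, 5 fell, 1 rose and 22 did not pass, with a median log2 fold change of −0.10. Over all genes tested 6.24% fell and 3.11% rose, with a median of 0.0019. The fifth gene that fell was JUN (−0.17, adjusted p = 0.0217) and the 1 that rose was JUND (0.26, adjusted p = 0.00769), and both were named after their values were seen. With the trend on length and GC content removed, JUND did not pass (0.05, adjusted p = 0.645). In the main fit FOS, the partner of JUN in AP-1, had −0.10 (adjusted p = 0.637), and IER2 had 0.01 (adjusted p = 0.939). Leaving out a library gave between 3 and 6 genes that fell, the lowest without each of the low-dose libraries and vehicle B replicates 2 and 3 in turn, and the highest without vehicle B replicate 1.

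Among the other DEGs that fell, HMCN1, which encodes the large extracellular matrix protein hemicentin, had 33.6, 41.0 and 40.7 CPM in the vehicle and 23.4, 24.5 and 27.1 CPM at the low dose. The groups did not overlap, and the fall was −0.63 (SE 0.079, adjusted p = 0.00124). NBEAL1, of the BEACH domain family, had 12.8, 17.5 and 21.8 CPM against 11.4, 10.9 and 10.8 CPM (−0.65, SE 0.14, adjusted p = 0.0131), and vehicle B replicate 1 was the nearest to the treated libraries. The span of NBEAL1 on the genome overlaps that of WDR12, so its reads are uncertain. ZBED6, a transcriptional repressor whose gene lies within ZC3H11A, had 14.8, 20.7 and 23.4 CPM against 11.4, 10.9 and 12.8 CPM (−0.75, SE 0.13, adjusted p = 0.00527). Reads of ZBED6 and its host gene lie in the same place and their division is uncertain. EDN1, the vasoconstrictor peptide endothelin, was lower at 2.58, 2.95 and 2.71 CPM against 4.87, 4.69 and 3.33 CPM (−0.65, SE 0.16, adjusted p = 0.0232). Other DEGs that fell were POMK, PPARGC1B, ZNF490, FAT3, SEMA3D, GPR146, ENSG00000272410 and ENSG00000270149. Each of these had at most 6.55 CPM in a vehicle library, and changes ran from −0.66 (POMK) to −0.94 (GPR146), and GPR146, ZNF490, ENSG00000272410 and ENSG00000270149 overlap other protein-coding genes, so their counts are uncertain. The exception in size was −3.56 for ENSG00000270149, which had 0.0805, 0 and 0.197 CPM at the low dose.

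The 20 DEGs that rose were mostly of low abundance. C4orf48, which encodes a small secreted peptide, had 6.71, 5.76 and 5.94 CPM in the vehicle and 12.1, 9.64 and 13.4 CPM at the low dose. Its libraries did not overlap, and the rise was 0.92 (SE 0.12, adjusted p = 0.00151), past both thresholds in each of 15 alternatives. PRR7, a proline-rich membrane protein, had 12.1, 11.9 and 11.4 CPM against 18.8, 16.3 and 19.4 CPM (0.61, SE 0.080, adjusted p = 0.00138). ENSG00000263020 had 6.20, 7.04 and 7.83 CPM against 10.1, 12.6 and 10.2 CPM (0.64, SE 0.11, adjusted p = 0.00534). Its span on the genome overlaps those of GPANK1, CSNK2B and LY6G5B, so its reads cannot be assigned to it with certainty. SOCS1, the suppressor of cytokine signalling through JAK kinases, had 2.25, 1.99 and 2.44 CPM in the vehicle. At the low dose it had 3.99, 3.62 and 4.14 CPM, all above the vehicle libraries (0.81, SE 0.15, adjusted p = 0.00693). SOCS1 overlaps RMI2, so the division of its reads is uncertain as well. The other DEGs that rose were CABYR, CCDC78, SAPCD1, PILRA, AMT, ACTC1, NPIPB15, ZNF625-ZNF20, HSF4, SGIP1, RHPN1, CBARP, FCRLB, LTB4R2, ENSG00000272916 and ENSG00000258653, with rises from 0.63 (LTB4R2) to 1.41 (CABYR). NPIPB15 belongs to a family of near-identical copies, and ZNF625-ZNF20 shares exons with its component genes, so the counting of both is uncertain. The same holds for CBARP, HSF4, CCDC78, SAPCD1, PILRA, AMT, LTB4R2, ENSG00000272916 and ENSG00000258653, which overlap other protein-coding genes.

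Below the fold threshold, the smallest adjusted p-values among genes that rose belonged to negative regulators and an ion channel relative. NFKBIA (chr14:35401079-35404749, minus strand), whose product IκBα holds NF-κB in the cytoplasm, had 30.3, 32.6 and 32.7 CPM in the vehicle and 41.2, 42.3 and 43.0 CPM at the low dose (0.40, SE 0.052, adjusted p = 0.00138). ZFP36, which promotes decay of cytokine mRNAs, had 21.6, 20.6 and 19.8 CPM against 26.7, 28.0 and 29.3 CPM (0.43, SE 0.060, adjusted p = 0.0017). ANO9, of the anoctamin family, had 25, 24.3 and 23.6 CPM against 31.5, 33.6 and 32.3 CPM (0.42, SE 0.054, adjusted p = 0.00138). The treated libraries of all 3 genes lay above the vehicle libraries. Among genes that fell, DYNC1H1, the heavy chain of cytoplasmic dynein, had 515, 551 and 592 CPM against 399, 386 and 417 CPM (−0.47, SE 0.052, adjusted p = 0.000801). PLK2, a stress-regulated kinase, had 194, 197 and 189 CPM against 154, 150 and 146 CPM (−0.37, SE 0.041, adjusted p = 0.000801). FLNC, an actin-crosslinking filamin, had 972, 979 and 1030 CPM against 766, 787 and 800 CPM (−0.35, SE 0.039, adjusted p = 0.000801).

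**Figure D2:**
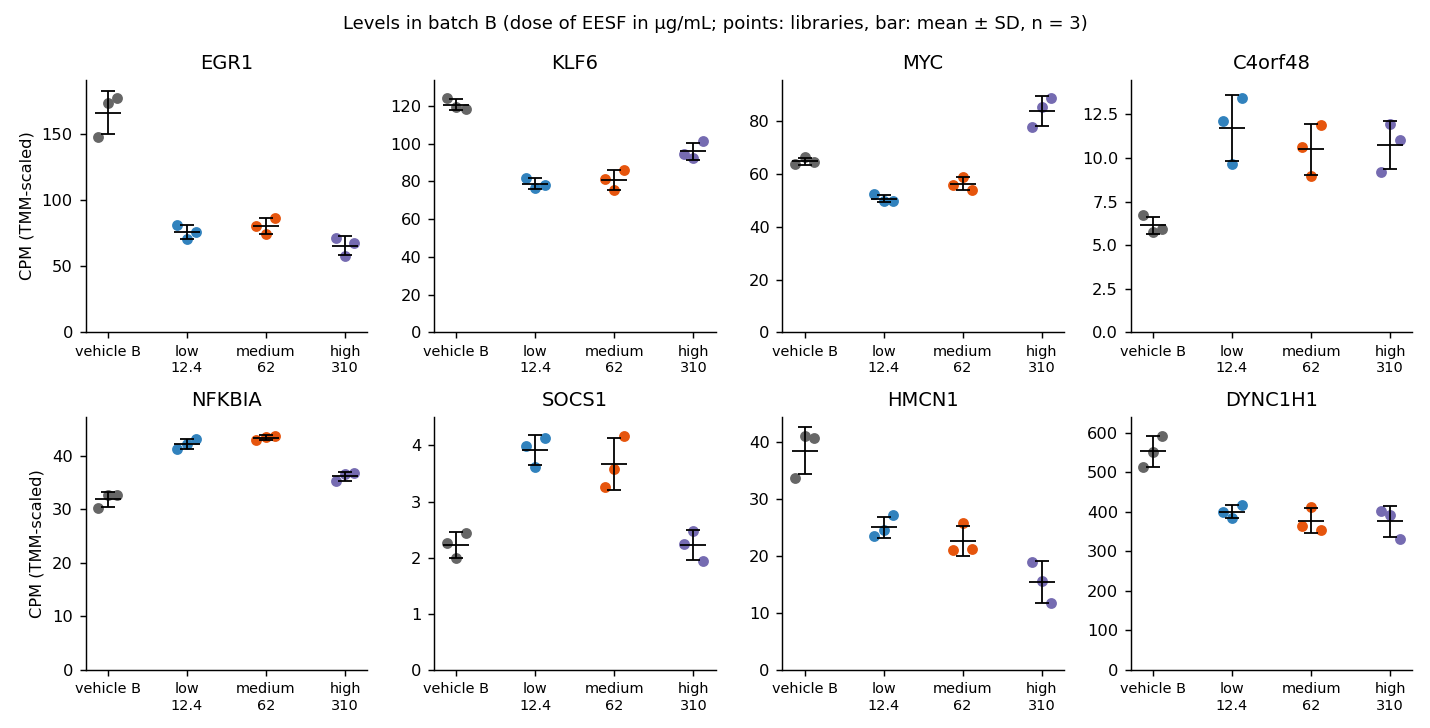
CPM (y axis, from 0) of 8 genes in the libraries of batch B by dose of EESF in µg/mL (x axis). Points are libraries and bars the mean ± SD of 3. EGR1 stays between 57.6 and 86.6 CPM at all doses, below every vehicle library, while MYC is lower at the low dose and higher at 310 µg/mL.

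Whether these genes carried on was read from the medium and high doses, each compared with the same vehicle B libraries. The 3 comparisons share those controls, so their values are set side by side and the counts are a description. The background was high at the top dose. At the medium dose 98 of 12978 genes were DEGs (0.755%) and 15.4% passed the adjusted p, and at the high dose 2276 of 13092 were DEGs (17.4%) and 58% passed. Of the 20 genes that rose at the low dose, 14 of 19 tested rose at the medium dose (background 6.9%) and 18 of 20 at the high dose (29.3%). Of the 15 that fell, 9 fell at the medium dose (8.48%) and 11 at the high dose (28.7%). As DEGs in the same direction, 13 (background 0.47%) and 16 (8.21%) of the rises and 7 (0.285%) and 9 (9.17%) of the falls carried on at the medium and the high dose. None of the 35 passed in the opposite direction at either dose with edgeR, and none did so at an unadjusted p under 0.05. Median log2 fold changes of the rises were 0.78 at the medium and 1.00 at the high dose, and those of the falls were −0.66 and −1.01.

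EGR1 carried on at both doses. It had 80.5, 74.9 and 86.6 CPM at the medium and 71.7, 57.6 and 67.5 CPM at the high dose, with changes of −1.04 (adjusted p = 4.26e-07) and −1.34 (adjusted p = 1.36e-07). HMCN1 had changes of −0.63, −0.76 and −1.32 at the 3 doses, and EDN1 −0.65, −0.77 and −1.47. HSF4, a heat shock transcription factor, had 0.82, 1.06 and 1.64, and CBARP, a regulator of calcium channels, 0.65, 0.81 and 1.27. With the trend on length and GC content described below removed, CBARP did not pass at the low dose (0.48, adjusted p = 0.0741). C4orf48 had 0.92, 0.78 and 0.81, so its level at the higher doses stayed within the range of the low dose, which lay between 9.64 and 13.4 CPM, except for 2 libraries at 8.99 and 9.21 CPM. DYNC1H1 had −0.47, −0.54 and −0.56, and PLK2 −0.37, −0.30 and −0.30.

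KLF6, SOCS1 and NFKBIA came back towards the vehicle at the high dose. KLF6 had 81.1, 75.5 and 86.2 CPM at the medium and 94.4, 92.6 and 101 CPM at the high dose, with changes from vehicle of −0.57 and −0.33. SOCS1 had 3.25, 3.58 and 4.17 CPM at the medium dose and 2.25, 2.48 and 1.95 CPM at the high dose, where it overlapped the vehicle (0.00, adjusted p = 0.989). NFKBIA had 42.9, 43.5 and 43.7 CPM and then 35.2, 36.5 and 36.8 CPM, with changes of 0.45 and 0.19. The high dose against the medium dose uses 6 libraries that take no part in the low-dose comparison. There KLF6 rose by 0.25 (SE 0.059, adjusted p = 0.00311), SOCS1 fell by 0.72 (SE 0.15, adjusted p = 0.00129) and NFKBIA fell by 0.26 (SE 0.053, adjusted p = 0.000961). In the same comparison EGR1 fell further, by 0.30 (SE 0.075, adjusted p = 0.00434).

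Of the low-dose DEGs, 34 could be tested between the high and the medium dose, where 50.9% of 13263 genes passed the adjusted p (25.6% up, 25.3% down) and 11.6% were DEGs (5.03% up, 6.54% down). Among the 20 that rose at the low dose, 5 were higher at the high than at the medium dose (ENSG00000272916, HSF4, RHPN1, CBARP and FCRLB) and SOCS1 was lower. Among 14 that fell, 5 were lower at the high than at the medium dose (EGR1, HMCN1, EDN1, SEMA3D and GPR146) and KLF6 was higher. Against the low dose, the high dose did not pass for RHPN1 (0.28, adjusted p = 0.204), FCRLB (0.26, adjusted p = 0.139) or GPR146 (−0.38, adjusted p = 0.296), and at the medium dose FCRLB (0.11), GPR146 (−0.40), RHPN1 (0.54) and ENSG00000272916 (0.99) did not pass against vehicle. Set beside the background, the share of each group that moved, 6 of 20 and 6 of 14, was below that of all genes tested. SEMA3D, a semaphorin, had 1.49, 1.43 and 1.78 CPM in the vehicle, 0.805, 0.984 and 0.641 CPM at the low dose and 1.73, 1.17 and 1.15 CPM at the medium dose, where it did not pass (−0.18, adjusted p = 0.629). At the high dose its level was 0.246, 0.350 and 0.066 CPM (−2.79, adjusted p = 3.42e-05).

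**Figure D3:**
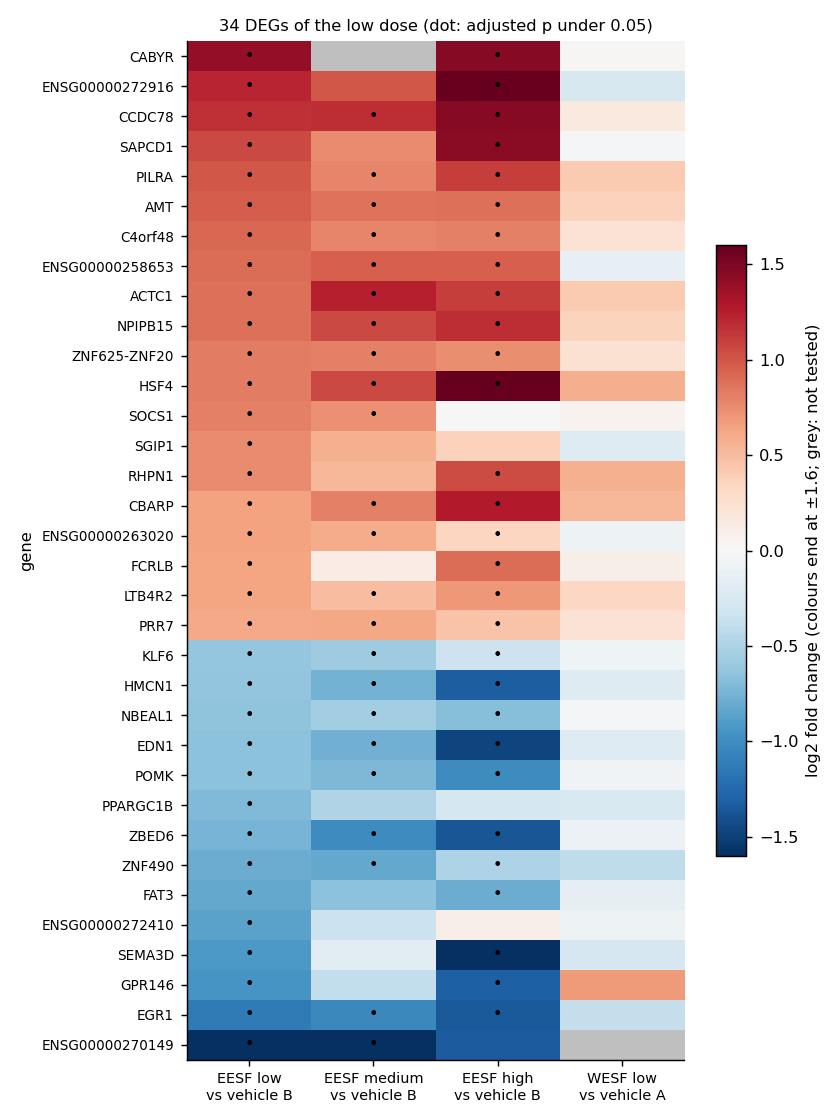
Log2 fold change (colour, ends at ±1.6) of 34 of the 35 DEGs of the low dose (rows, sorted by the low-dose change) at 3 doses of EESF against vehicle B and at the low dose of WESF against vehicle A (columns). Dots mark an adjusted p under 0.05 and grey cells genes not tested. The low column chose the rows. SOCS1 is white at the high dose, and no dot stands in the WESF column.

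The medium and low doses of EESF hardly differed from each other. Of 13093 genes, 18 passed the adjusted p (0.137%, 11 up or 0.084% and 7 down or 0.0535%), 2 of them DEGs (0.0153%), and none of the 34 low-dose DEGs tested was among them (edgeR, 5 at an unadjusted p under 0.05). DESeq2 gave 3 DEGs. Of the 2 DEGs, TXNIP, which encodes the thioredoxin-interacting protein and responds to glucose through MondoA, had −0.16 (adjusted p = 0.247) at the low dose against vehicle and rose by 0.62 (SE 0.082, adjusted p = 0.00234) from the low to the medium dose, with 4.82 at the high dose against vehicle. The other, INO80B-WBP1, is a readthrough transcript that shares exons with its component genes, and its counts are uncertain. Among the 7 that fell from the low to the medium dose were SCD (−0.26), FADS2 (−0.27) and LIPG (−0.46), named after their values were seen. None of these 3 passed at the low dose against vehicle, where they had −0.07, 0.02 and 0.05. The high dose differed from the low dose at 57% of 13197 genes (28.7% up, 28.4% down), and 14.6% were DEGs (6.45% up, 8.15% down). Of the DEGs of the low dose that rose, 3 of 20 tested were higher still and 2 lower at the high dose, and of those that fell, 5 of 14 were lower still and 4 higher.

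Among all 1206 genes past the adjusted p at the low dose, 320 of 400 tested rises and 650 of 805 falls passed in the same direction at the medium dose and none in the opposite direction, beside 6.9% and 8.48% of all genes. At the high dose, where 29.3% of all genes rose and 28.7% fell, 263 of 401 rises and 538 of 805 falls passed in the same direction, while 33 rises had become falls and 52 falls had become rises. All 3 doses were set against the same vehicle libraries, so these counts are not independent. The genes that fell at the low dose were long, with a median exon length of 11005 bases, and of all genes over 10 kb 26.9% fell at the medium and 47.4% at the high dose. MYC was among the falls that had become rises. It had 56.0, 59.0 and 54.1 CPM at the medium dose (−0.19, adjusted p = 0.015) and 77.7, 85.3 and 88.6 CPM at the high dose, above every vehicle library (0.37, adjusted p = 0.000214). Between the high and the medium dose MYC rose by 0.57 (SE 0.060, adjusted p = 3.5e-06). JUN took the same course, with −0.17, −0.06 (adjusted p = 0.358) and 0.68 (adjusted p = 2.21e-06) at the 3 doses.

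Lists of genes by function were described by their counts beside those of all genes tested. In the list of matrix and adhesion genes, 15 of 36 fell and none rose, with a median of −0.11, beside 6.24% and 3.11% of all genes tested and a median of 0.0019. These are long genes, with a median exon length of 8171 bases, and of all genes tested 7.39% fell at 6 to 10 kb of exon and 21.7% above 10 kb. In edgeR, 1 had an unadjusted p under 0.05 upwards, and DESeq2 gave 17 down and 0 up. The proteoglycan VCAN had 576, 675 and 711 CPM in the vehicle and 477, 476 and 513 CPM at the low dose (−0.43, SE 0.064, adjusted p = 0.00279). COL12A1, a fibril-associated collagen, had 369, 418 and 411 CPM against 308, 302 and 325 CPM (−0.36, SE 0.051, adjusted p = 0.00182). Neither overlapped its vehicle, and the same held for COL6A3 (−0.34, adjusted p = 0.000801) and fibronectin, FN1 (−0.34, adjusted p = 0.00209). Leaving out a library gave 5 (without vehicle B replicate 2) to 19 (without vehicle B replicate 1) that fell. At the high dose 19 of the 36 fell and 11 rose, where 28.7% of all genes fell and 29.3% rose. VCAN (−0.92) and COL12A1 (−1.17) were lower still there, FN1 had −0.43, and COL6A3 was back at 0.03 (adjusted p = 0.697). The gene of integrin β8, ITGB8, named after its values were seen, had −0.24, −0.55 and −3.22 at the 3 doses.

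Several protein-folding genes fell by small amounts, where 6.24% of all genes fell. Of 18 heat shock genes 5 fell and none rose (median −0.06, 1 upwards at an unadjusted p under 0.05 in edgeR, 0 by DESeq2). The inducible chaperone HSPA1A had 133, 131 and 133 CPM in the vehicle and 109, 103 and 102 CPM at the low dose (−0.35, SE 0.042, adjusted p = 0.00124). Its near-identical copy HSPA1B had −0.27 (adjusted p = 0.00634), and the division of reads between the 2 genes is uncertain. HSPH1 had −0.22 (adjusted p = 0.0107), DNAJB4 −0.18 (adjusted p = 0.0327) and the constitutive HSPA8 −0.17 (adjusted p = 0.0157), the last named after its values were seen. From the medium to the high dose HSPA1A rose by 0.45 (SE 0.063, adjusted p = 4.96e-05). Of 22 genes for chaperones and stress regulators of the endoplasmic reticulum, 6 fell and none rose (0 upwards at an unadjusted p under 0.05 in edgeR or by DESeq2), with DNAJB9 at −0.38, DNAJC3 at −0.26 and CREB3L2 at −0.22, while HSPA5, the most abundant, had −0.04 (adjusted p = 0.482). Without 1 library the falls numbered 2 to 5 for the heat shock genes and 1 (without low-dose replicate 1) to 7 (without vehicle B replicate 1) for the endoplasmic reticulum.

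Single members of the clock, cell cycle and signalling lists passed, where 6.24% of all genes fell and 3.11% rose. Of 18 clock genes 3 fell and none rose (2 upwards at an unadjusted p under 0.05 in edgeR, 0 by DESeq2), among them NR1D1, the nuclear receptor REV-ERBα that represses BMAL1. NR1D1 had 101, 99.8 and 102 CPM in the vehicle and 78.6, 81.7 and 81.6 CPM at the low dose (−0.33, SE 0.041, adjusted p = 0.00124), and CLOCK (−0.28) and NR1D2 (−0.22) were the other two. Of 29 G2/M genes 3 fell, MKI67 (−0.45, adjusted p = 0.00287), ASPM (−0.39) and CENPF (−0.27), which all have over 10 kb of exon, where 21.7% of genes fell, and AURKB rose by 0.19 (adjusted p = 0.0453), a call lost with the length and GC trend removed (adjusted p = 0.296). Among TGF-β and YAP targets 3 of 22 rose, ID1 (0.34, adjusted p = 0.00402), ID3 (0.28) and AMOTL2 (0.19), and CRIM1 fell (−0.16), and ID3 and CRIM1 did not pass with the trend removed (adjusted p = 0.0839 and 0.0663). Of 16 cytokine and NF-κB target genes tested 2 rose, NFKBIA and the chemokine gene CCL2, which had 10.3, 11 and 9.99 CPM in the vehicle and 12.8, 14.2 and 14.3 CPM at the low dose (0.40, SE 0.078, adjusted p = 0.00903). CCL2 was below the vehicle at the high dose (−0.34, adjusted p = 0.0126). Of the 21 members of its list tested there, 15 rose and 1 fell, where 29.3% of all genes rose and 28.7% fell. Leaving out a library gave 1 to 6 falls for the clock list, 2 to 6 for the G2/M list, 1 to 3 rises for the TGF-β and YAP list and 1 to 4 for the cytokine list.

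Targets of the stress factors ATF4 and NRF2 were set beside all genes tested, of which 3.11% rose. Of 25 ATF4 targets 2 rose, CEBPB (42.3, 47.4 and 45.6 CPM against 61.3, 57.8 and 69.1 CPM, 0.47, SE 0.066, adjusted p = 0.00185) and the mTORC1 inhibitor DDIT4 (0.28, adjusted p = 0.00975). Of 21 NRF2 targets 2 rose, the ferritin chains FTL (0.27, adjusted p = 0.00292) and FTH1 (0.21, adjusted p = 0.0145), both of which have many processed copies in the genome. At the high dose 23 of 25 ATF4 and 15 of 21 NRF2 targets rose, against 29.3% of all genes. Of 22 genes of cholesterol synthesis none passed in edgeR or DESeq2, and 4 had an unadjusted p under 0.05. Without 1 library the rises numbered 1 to 3 for the ATF4 list and 1 to 4 for the NRF2 list. In the same fits the falls numbered 0 to 3 for the ATF4 list and 0 to 2 for the NRF2 list.

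Genes of oxidative phosphorylation were also set beside all genes tested, of which 3.11% rose. None of 37 nuclear genes of complex I passed in edgeR or DESeq2, and 2 had an unadjusted p under 0.05. In complexes III and IV 2 of 21 rose, CYC1 (93.7, 86.5 and 86.7 CPM against 105, 102 and 103 CPM, 0.21, adjusted p = 0.0122) and UQCRFS1 (0.17, adjusted p = 0.036), and in ATP synthase 2 of 17, ATP5F1D (0.37, adjusted p = 0.00292) and ATP5MC2 (0.21, adjusted p = 0.0177). With the length and GC trend removed, neither CYC1 nor UQCRFS1 passed (adjusted p = 0.339 and 0.054). COX5B, a nuclear subunit of complex IV, had 0.09 (SE 0.11, adjusted p = 0.646) in the main fit. Of 13 mitochondrially encoded genes MT-ND6 rose (0.20, adjusted p = 0.0372) and MT-ND4L fell (−0.22, adjusted p = 0.00903), and MT-ND4L overlaps its neighbour MT-ND4, so its reads are uncertain. None of 86 cytosolic or 78 mitochondrial ribosomal protein genes passed, with 3 and 13 at an unadjusted p under 0.05 and 2 and 0 by DESeq2. Without 1 library 0 (without any low-dose library or vehicle B replicate 2) to 5 genes of complexes III and IV rose, and 1 to 5 of ATP synthase. Without vehicle B replicate 1, the rises numbered 3 in complex I, 10 among cytosolic and 8 among mitochondrial ribosomal proteins.

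**Figure D4:**
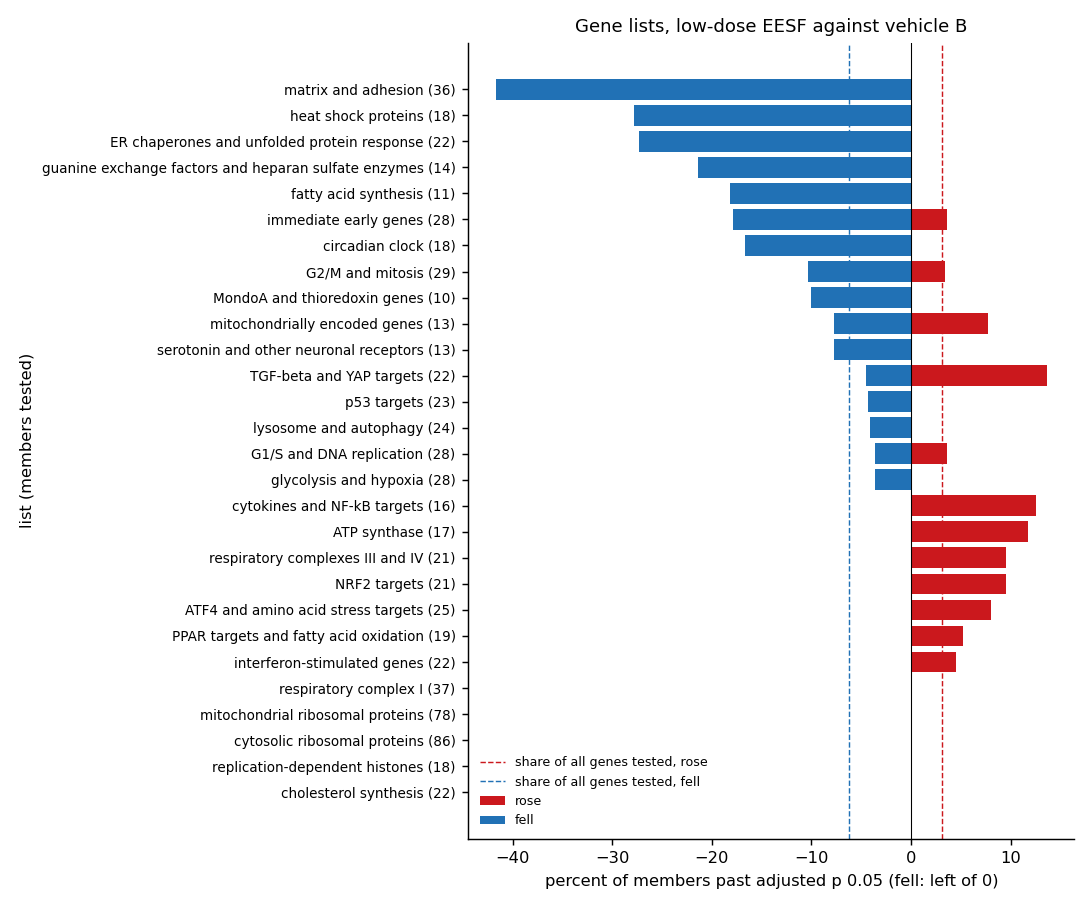
Share of tested members of each gene list that rose (red, right of 0) or fell (blue, left of 0) at the low dose with an adjusted p under 0.05, with the number tested in parentheses. Dashed lines give the shares of all genes tested, 3.11% and 6.24%. Matrix and adhesion genes have the longest bar, at 15 of 36.

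The changes followed transcript length. Genes that fell had a median exon length of 11005 bases and a GC content of 44.6%, genes that rose 3693 bases and 59%, and all genes tested 5460 bases and 48.6%. Of 2136 genes with over 10 kb of exon 21.7% fell and 0.562% rose (median −0.10), and of 965 genes under 2 kb 0.207% fell and 7.36% rose (median 0.09). Genes over 10 kb stood at −0.11, −0.10 and −0.09 in the low-dose libraries relative to the mean of vehicle B, and at −0.05, 0.02 and 0.04 in the vehicle libraries themselves. The low dose of WESF had −0.01 in genes over 10 kb against its own vehicle, where no gene passed. RNA integrity and fragment length per library were not analysed here, and their part in the result was not tested.

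After a trend on exon length and GC content had been removed from each library, an alternative chosen after seeing the data, there were 23 DEGs (22 of the 35) and 757 genes past the adjusted p (5.87%), 248 up (1.92%) and 509 down (3.95%), of which 542 were among the 1206. EGR1 then had −1.21, KLF6 −0.60, HSPA1A −0.46, NR1D1 −0.44, MYC −0.37 and NFKBIA 0.35, each past the test. Several values shrank. Of the 35 DEGs 27 passed the adjusted p in that fit, and those that did not included CBARP, PPARGC1B (adjusted p = 0.0536), ACTC1 (adjusted p = 0.0572), LTB4R2 (adjusted p = 0.0647), FAT3 (adjusted p = 0.0798), RHPN1 (adjusted p = 0.0848) and FCRLB (adjusted p = 0.104). PRR7 (0.38), HMCN1 (−0.50), NBEAL1 (−0.47), POMK (−0.56) and ENSG00000263020 (0.57) passed the test but were no longer DEGs, and DYNC1H1 had −0.29, COL12A1 −0.24, COL6A3 −0.23 and CEBPB 0.29. Smaller by over 1.5-fold but still past the test were also DDIT4 (0.16), FTL (0.15), ID1 (0.21), ATP5F1D (0.19), CENPF (−0.16), CLOCK (−0.17) and HSPH1 (−0.14). The same held for HS2ST1 (−0.156) and ACACA (−0.155), which are described under other observations. Among the list genes named above, CYC1 (0.06, adjusted p = 0.339), JUND (0.05, adjusted p = 0.645), UQCRFS1 (adjusted p = 0.054), FTH1 (adjusted p = 0.183), ITGB8 (adjusted p = 0.157) and MT-ND6 (adjusted p = 0.112) no longer passed, beside ID3, CRIM1, AURKB and COL1A2.

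With the trend removed, members entered the lists as well as left them, and members that entered are named here after their values were seen. Of the matrix list 11 of 36 fell, 8 of them among the 15 above, with COL6A1 (−0.17) and COL6A2 (−0.21) among those that entered. The 5 falls of the immediate early list, the 5 of the heat shock list, the 3 of the clock list and the 3 of the G2/M list all passed again, with MKI67 at −0.36 and ASPM at −0.28. DNAJA1 (−0.13) joined the heat shock genes that fell, and BHLHE40 (−0.19) and BHLHE41 (−0.19) the clock genes. In the endoplasmic reticulum 4 of the 6 falls passed, without CANX (−0.04, adjusted p = 0.472) and SEL1L (−0.12, adjusted p = 0.0741), and PDIA3 rose (0.15). Both rises of the ATF4 list passed and SLC7A5 fell (−0.14). Among TGF-β and YAP targets CCN1 fell (−0.17). In the respiratory lists NDUFB7 of complex I (−0.28) and MT-CO1 (−0.17) fell, MT-ND4L fell again (−0.32), both rises of ATP synthase passed, and neither of those in complexes III and IV did. RPL7L1 rose (0.18) and RPL36 fell (−0.19) among cytosolic ribosomal proteins, and among the mitochondrial ones MRPS27 (0.18), MRPS5 (0.22) and MRPL42 (0.23) rose and MRPL34 (−0.24) and MRPL12 (−0.20) fell.

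**Figure D5:**
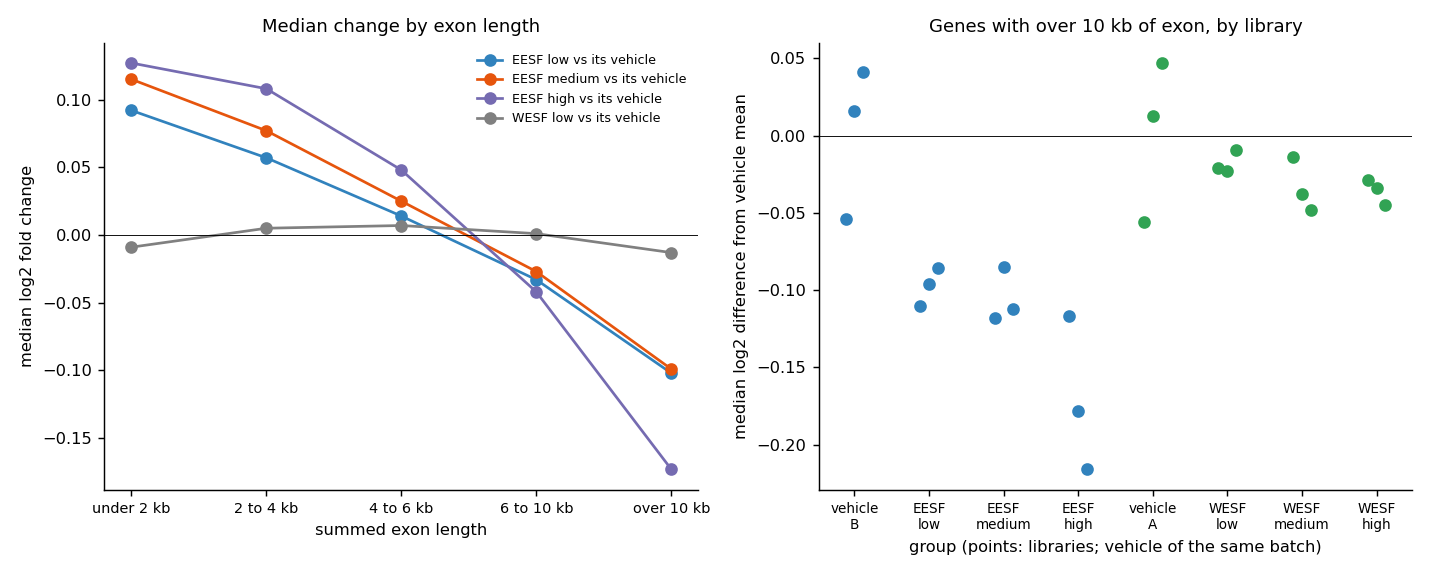
Left, median log2 fold change (y axis) of genes in 5 classes of summed exon length (x axis) for 3 doses of EESF and the low dose of WESF, each against its vehicle. Right, median log2 difference of genes over 10 kb from the mean of the vehicle of the same batch in each library. The low-dose EESF libraries lie between −0.11 and −0.09, below the lowest vehicle B library at −0.05.

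The low dose of WESF (20 µg/mL) has its own libraries and its own vehicle A, and it differs from the low dose of EESF in dose and batch as well as in extract, and these cannot be told apart. The vehicles of the batches were not independent in their deviations. Same-numbered libraries of vehicles A and B deviated together from their group means across genes, with r of 0.311, 0.165 and 0.2, against −0.217 to 0.026 for the other pairs. The counts of same-numbered libraries differed by more than sampling noise (chi-square per degree of freedom 3.33 to 3.61), while genes over 10 kb stood at −0.06, 0.01 and 0.05 in vehicle A and at −0.05, 0.02 and 0.04 in vehicle B. Whether they share a source was not tested. Against vehicle A the low dose of WESF gave 0 DEGs and 0 genes past the adjusted p among 13131 (edgeR, 470 at an unadjusted p under 0.05, 1 DEG by DESeq2). EGR1 had 144, 162 and 166 CPM in vehicle A and 157, 106 and 97.0 CPM at the low dose of WESF, so that replicates 2 and 3 lay below every vehicle library and replicate 1 among them (−0.38, SE 0.13, unadjusted p = 0.00908, adjusted p = 0.999). KLF6 had 124, 123 and 123 CPM in vehicle A and 121, 115 and 117 CPM at the low dose of WESF, without overlap (−0.07, adjusted p = 0.999). When the low-dose effects of the 2 extracts were tested against each other, KLF6 alone of 13221 genes passed (0.00756%, edgeR), with a difference of −0.53 (SE 0.058, adjusted p = 0.000693). With the replicate number as a block within each batch 11 genes passed, all lower under EESF relative to WESF. With the number shared by the batches as a block, a fit chosen after seeing the data, 46 passed, 43 lower and 3 higher. KLF6 passed in both, with −0.53 each time, and so did DYNC1H1 (−0.40) and FLNC (−0.32). MYC (−0.31), HSPA1A (−0.31), PLK2 (−0.30) and NR1D1 (−0.29) passed with the shared block alone. EGR1 had a difference of −0.73 (SE 0.18, adjusted p = 0.247) without a block, and did not pass with a block within batches (−0.70, adjusted p = 0.136) or shared by them (−0.73, adjusted p = 0.0763). The trend with transcript length was not removed in these fits.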

How the data were processed

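RNA of SW1783 cells (24 libraries, 8 groups of 3) was sequenced by the authors, and 6 libraries are described here. Per the labels and methods, reads passed FastQC 0.11.9 and Trim Galore 0.6.6, were aligned to GRCh38 with STAR 2.7.9a and counted with RSEM 1.3.3. The authors deposited RSEM's expected counts per gene, unnormalized, and 10.9% of values are not whole because reads shared by genes are divided. The strand setting is not given in the sources used here. Of 60675 genes, 56558 are in GENCODE release 44 and 19586 are protein-coding.

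Expected counts were rounded. Protein-coding genes passing filterByExpr were tested with edgeR 4.0.16 in R 4.3.3 (TMM, quasi-likelihood test, 2-sided), each comparison on its own libraries, with Benjamini-Hochberg adjustment over all genes tested. The thresholds for DEGs were 0.05 for the adjusted p and 1.5 for the fold. The study's tool, DESeq2, was run as an alternative (1.42.0). Levels are CPM. Markers were divided by summed exon length. On simulated data for this comparison (12877 genes), edgeR recovered 91% of 100 genes changed by 1 on the log2 scale and 100% of 96 changed by 2. Of 193 genes it called there, 6 were unchanged. The simulated counts held no trend on length or GC content and no replicate effect, and smaller changes were not simulated.

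Named genes were, in each direction, the 10 largest DEGs averaging 100 or more normalized counts, the 5 smallest adjusted p-values, every DEG that DESeq2 also called, and at most 4 members of a list. Values of other DEGs, such as EDN1, SOCS1, HSF4, CBARP, SEMA3D, GPR146, RHPN1 and FCRLB, stand outside this rule and were chosen after they were seen. The comparison, lists and rules were chosen with earlier results of these data known. Alternatives were DESeq2, its size factors, no filter, all genes, thinning to 18727769 counts, all 4 groups in the fit, a replicate block, leaving out each library, and a loess trend (span 0.5) on length and GC content. Counts cover all genes tested, and 1 of the 35 DEGs of the low dose is not reported here by name.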

Additional observations from a re-analysis of the deposited data

Results flagged for a closer look

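KLF6 differed between the extracts at the low dose by the test of the difference itself (−0.53 on the log2 scale, edgeR adjusted p = 0.000693). Libraries were compared for 41 genes, the DEGs and the other genes with the smallest adjusted p-values. In 2 of these 41 every low-dose EESF library moved one way from the mean of its vehicle and every low-dose WESF library the other way. GPR146, a receptor gene of low abundance, had a difference of −1.6 (SE 0.33, adjusted p = 0.172) and ENSG00000263020 had 0.74 (SE 0.16, adjusted p = 0.174), so neither passed. Dose and batch differ between the extracts and cannot be told apart from the extract. With 3 libraries per group no search for outlying samples was made.

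Outside the protein-coding genes, a fit of all 15462 genes gave 73 DEGs at the low dose, 43 of them outside the annotated protein-coding genes, 24 up and 19 down, including 2 that the annotation used does not hold. The nuclear long non-coding RNA MALAT1 had 910, 742 and 893 CPM in the vehicle and 1369, 1399 and 1341 CPM at the low dose (0.695, SE 0.062, adjusted p = 7.16e-05), and 0.78 and 0.98 at the medium and high doses. NEAT1, the scaffold of paraspeckles, had 370, 343 and 341 CPM and then 520, 569 and 527 CPM (0.62, SE 0.046, adjusted p = 1.81e-05), with 0.51 at the medium dose and 0.00 at the high dose. Neither overlapped its vehicle. ENSG00000280614, which had the same values as ENSG00000280800 and ENSG00000281181, had 53.2, 50.9 and 57.8 CPM and then 32.3, 30.1 and 26.9 CPM (−0.85, SE 0.068, adjusted p = 2.47e-05). GENCODE lists all 3 as long non-coding RNAs, but each lies within a ribosomal RNA gene of RefSeq on GRCh38.p14 (ENSG00000280614 at chr21:8393419-8394341, minus strand, inside RNA18SN3 at chr21:8392666-8394534), and the part of ribosomal RNA in these counts was not tested. ENSG00000280614 had 24.6, 50.1 and 68.2 CPM at the medium dose, from below to above the vehicle libraries. At the high dose it had 35.4, 35.6 and 38.2 CPM. Genes that are not protein-coding took 3.12 to 3.17% of counts in the vehicle and 3.36 to 3.46% at the low dose.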

How the results depend on the processing

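Genes named only as members of a list were not counted here. The 14 other named genes kept their direction in all 210 values under the alternatives, and 206 stayed on the same side of the adjusted p of 0.05. The 4 exceptions were NBEAL1 without 1 library. With the fold threshold added, HMCN1 was a DEG in 10, PRR7 and ENSG00000263020 in 11 and NBEAL1 in 8 of 15 alternatives. The other DEGs were less stable. All 35 kept their sign, but only 9 passed the adjusted p without each of the 6 libraries in turn, and EDN1, HSF4 and CBARP passed in 2 of these 6 fits. The 35 DEGs of the low dose became 8 with DESeq2, 64 with no filter on low counts (16773 genes tested), 73 with all genes of the table and 23 with the length and GC trend removed, and the cause of the last was not tested. Leaving out 1 library gave 11 to 91. The 1206 genes past the adjusted p became 770 with all 4 groups of the batch in the fit and 757 with the length and GC trend removed, and 213 to 2679 without 1 library. DEGs of the medium dose were 33 with DESeq2 (98 in the reported fit) and 50 (without medium replicate 3) to 164 (without vehicle B replicate 1) without 1 library, with 61 without vehicle B replicate 2. DEGs between medium and low dose were 2 to 8 without 1 library, with 8, 5, 4 and 6 without medium replicates 1 and 2 and low replicates 1 and 2. Those of the low dose of WESF were 1 with DESeq2 and 0 to 1 without 1 library (1 without WESF replicate 1 or vehicle A replicate 3). Same-numbered libraries of the low dose and vehicle B deviated together with r of 0.083, −0.03 and 0.072, against −0.102 to 0.027 for the other pairs. Whether replicate numbers pair the low dose with vehicle B cannot be told from these values. With the number as a replicate block there were 48 DEGs and 1531 genes past the adjusted p at the low dose, 11 DEGs between medium and low, and 11 genes that differed between the extracts, all lower under EESF (46 with the block shared by the batches). Replicates differed by more than sampling noise (chi-square per degree of freedom 2.95 to 6.20 in vehicle B and 2.30 to 3.32 at the low dose), and 27 DEGs averaged under 100 counts, where depth limits precision.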

Other observations

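Single members of other gene lists passed at the low dose. Of 14 enzymes of heparan sulfate synthesis and guanine exchange factors, 3 fell, and all 3 make or modify heparan sulfate. HS2ST1 had 118, 125 and 130 CPM in the vehicle and 107, 109 and 101 CPM at the low dose (−0.24, SE 0.049, edgeR adjusted p = 0.0116), GLCE had −0.20 (adjusted p = 0.0251) and NDST1 −0.17 (adjusted p = 0.0243). At the high dose the 3 genes had −0.48, −0.56 and −0.66. Of 11 genes of fatty acid synthesis 2 fell, ACACA (149, 160 and 170 CPM against 130, 136 and 142 CPM, −0.24, SE 0.052, adjusted p = 0.0137) and ACLY (−0.15, adjusted p = 0.0214). The HS2ST1 and ACACA libraries did not overlap between the groups, and 6.24% of all genes tested fell. With the length and GC trend removed, HS2ST1 had −0.156 (edgeR adjusted p = 0.0258) and ACACA −0.155 (adjusted p = 0.0289). Leaving out a library gave 0 to 3 falls in either list, with 0 in both without low-dose replicate 1 or vehicle B replicate 2, in the first also without low-dose replicate 3 and in the second without low-dose replicate 2.

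Over all genes tested 3.11% rose and 6.24% fell. Of 22 interferon-stimulated genes IFI6 alone rose (0.28, adjusted p = 0.0361). In the G1/S list of 28, CDT1 rose (0.21, adjusted p = 0.0404) and UHRF1 fell (−0.19, adjusted p = 0.0216). The hexokinase HK2 (−0.21, adjusted p = 0.0259), the p53 target ZMAT3 (−0.20, adjusted p = 0.0288), the proton pump subunit ATP6V1A (−0.19, adjusted p = 0.0448) and the glutamate receptor GRIK2 (−0.17, adjusted p = 0.0328) were the only members of their lists that passed in edgeR (of 10 and 28 tested for HK2, 23 for ZMAT3, 24 for ATP6V1A and 13 for GRIK2), and of 19 genes of fatty acid oxidation ACADVL rose (0.20, adjusted p = 0.0155). DESeq2 gave 1 rise and 1 fall in the glycolysis and hypoxia list, which holds HK2, and 0 in the lists of ATP6V1A and GRIK2. In the G1/S list it gave 0 rises and 1 fall. Without vehicle B replicate 2 no member of any list in this paragraph passed. HK2 was higher than in the vehicle at the high dose (0.55). With the length and GC trend removed, GRIK2 (0.00, adjusted p = 0.971), CDT1 (0.06, adjusted p = 0.578), IFI6 (0.15, adjusted p = 0.292), ZMAT3 (−0.10, adjusted p = 0.14), ATP6V1A (adjusted p = 0.0769) and GLCE (adjusted p = 0.0775) no longer passed, while FASN fell (−0.17, adjusted p = 0.0151) and VEGFA (0.19, adjusted p = 0.00527) and OAS2 (0.38, adjusted p = 0.0198) rose.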
